A study of Mus musculus with 8 samples.

Results

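The genes described here carry lactate through the cell and across its membrane. They are the lactate dehydrogenase genes Ldha and Ldhb, the monocarboxylate transporter genes Slc16a1 (MCT1), Slc16a7 (MCT2) and Slc16a3 (MCT4), and Bsg (basigin), which encodes their partner at the cell surface. These 6 genes were taken by symbol from a table of 27179 genes. As a family they were selected on their differences between exposure groups in an earlier analysis of the same counts, so those differences are given here as a description. All 6 were among the 14966 genes with enough counts to be tested. RNA was sequenced from neonatal cardiomyocytes (NCMs) of 8 male C57Bl/6 J mice at postnatal day 0, with 1 heart per library. Their dams had breathed filtered air (FA, 4 libraries, replicates 2, 3, 4 and 6) or diesel exhaust (DE, 4 libraries, replicates 1, 3, 5 and 7) from conception until shortly before birth. All hearts were trimmed of atria and vessels, digested with Liberase and held for 1 h with the antimitotic Ara-C while fibroblasts settled, so each library is an enriched suspension and not a sorted population. The sample names begin with the group and a number, which is 11 for all FA libraries and for DE replicates 1 and 7, and 12 for DE replicates 3 and 5. This number is called the prefix below. What the prefix stands for is not given in the sources used here, nor is the litter of each heart.

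Lactate dehydrogenase is a tetramer that interconverts pyruvate and lactate while exchanging NADH and NAD+. Its subunits come mainly from Ldha, the muscle type, which is favoured where glycolysis runs fast, and from Ldhb, the heart type, which is favoured where lactate is oxidized. Monocarboxylate transporters move lactate, pyruvate and ketone bodies together with a proton. MCT1 is the main form of the heart and works in both directions, MCT2 has a high affinity and is used for uptake, and MCT4 is the exporter of strongly glycolytic cells. MCT1 and MCT4 need basigin to reach the membrane, while MCT2 pairs mainly with embigin, encoded by Emb. The fetal heart uses lactate and glucose, and fatty acids take over as fuel after birth. Ldha and Slc16a3 are textbook targets of the hypoxia-inducible factors.

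Library totals lay between 17943024 and 39839737 counts. The NCM label was checked against marker genes. Tnnt2, cardiac troponin T, lay between 7500 and 9661 CPM (counts relative to a library total adjusted by TMM factors) in FA and between 6807 and 9314 in DE, while the leukocyte gene Ptprc lay between 0.451 and 1.00 CPM. The summed level of 12 cardiomyocyte markers was 80474 to 85690 CPM in FA and 68223 to 79164 in DE, and that of 9 fibroblast markers was 2038 to 3500 in FA and 3700 to 6245 in DE, with no overlap for either list. The gap in the cardiomyocyte sum rested on Myh6, the adult alpha myosin heavy chain, at 21243 to 24708 CPM in FA and 13762 to 15429 in DE, since without it the sums were 56743 to 61560 in FA and 54009 to 63735 in DE and overlapped. Of the 12 cardiomyocyte markers 1 was called higher and 2 lower in DE, and of the 9 fibroblast markers 3 were called, all higher. The fibroblast gene Col1a1 lay at 385 to 609 CPM in FA and 780 to 1174 in DE. In such bulk samples fewer cells of a type and less RNA per cell cannot be told apart.

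Of the 6 genes, 2 were higher in DE. Ldha rose 1.63-fold and Slc16a3 rose 4.37-fold, while Ldhb, Slc16a1, Slc16a7 and Bsg did not pass the test (Benjamini-Hochberg adjustment over all tested genes). Calls required an adjusted p no greater than 0.05 together with a difference of at least 25%, and 5.8% of all tested genes were called, which splits into 3.58% higher and 2.22% lower in DE. The values of Ldha and Slc16a3 were also the only ones of the 6 whose groups did not overlap, against 14.7% of tested genes. Because the genes were chosen with these differences already known, the counts describe the family and nothing is read from them beyond that.

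The promoter windows of both genes that rose are shown with those of their main partners, Slc16a1 and Ldhb, so that the sequences around the start sites can be compared. RefSeq windows on GRCm38.p6 were at hand for these 4 genes and cover 250 bases before and 50 bases after a listed start, at chr7:46845554-46845853 (plus strand) for Ldha, the upstream of 2 listed windows, chr11:120948817-120949116 (plus) for Slc16a3, chr3:104638414-104638713 (plus) for Slc16a1 and chr6:142507908-142508207 (minus) for Ldhb. Capitals mark every ACGTG and GCGTG, the cores of the hypoxia response element, and every CACGTG, the E-box bound by Myc and other factors, on either strand. CACGTG holds ACGTG on both strands, and CACGT and CACGC are the same cores read on the opposite strand. The windows run 5′ to 3′ in the direction of the gene.
Ldha: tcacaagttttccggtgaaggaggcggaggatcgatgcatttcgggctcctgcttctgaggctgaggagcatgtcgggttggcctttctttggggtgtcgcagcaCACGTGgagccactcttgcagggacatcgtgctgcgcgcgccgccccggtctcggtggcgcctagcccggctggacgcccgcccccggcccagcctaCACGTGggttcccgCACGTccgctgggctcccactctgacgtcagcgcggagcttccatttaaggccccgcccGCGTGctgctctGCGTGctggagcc
Slc16a3: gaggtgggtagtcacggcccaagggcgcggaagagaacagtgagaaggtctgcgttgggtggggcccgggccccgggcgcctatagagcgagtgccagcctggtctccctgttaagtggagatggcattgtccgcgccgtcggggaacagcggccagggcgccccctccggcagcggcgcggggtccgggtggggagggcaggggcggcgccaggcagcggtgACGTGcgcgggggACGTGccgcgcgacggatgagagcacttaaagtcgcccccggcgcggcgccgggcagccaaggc
Slc16a1: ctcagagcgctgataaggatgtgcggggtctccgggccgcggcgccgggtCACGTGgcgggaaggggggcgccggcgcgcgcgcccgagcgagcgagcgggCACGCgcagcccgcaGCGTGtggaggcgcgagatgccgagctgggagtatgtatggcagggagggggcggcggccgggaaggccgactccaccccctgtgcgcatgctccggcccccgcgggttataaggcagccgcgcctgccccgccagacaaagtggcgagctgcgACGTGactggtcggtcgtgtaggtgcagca
Ldhb: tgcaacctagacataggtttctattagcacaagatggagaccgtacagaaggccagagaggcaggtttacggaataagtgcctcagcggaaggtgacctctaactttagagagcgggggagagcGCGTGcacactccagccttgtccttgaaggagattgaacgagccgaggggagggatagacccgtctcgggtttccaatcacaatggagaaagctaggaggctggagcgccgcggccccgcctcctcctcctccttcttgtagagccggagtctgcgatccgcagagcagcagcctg
In the Ldha window shown, CACGTG began at positions -145 and -48 from the start. A further ACGTG lay on the opposite strand at -34, and GCGTG began at 26 and 38. The other listed Ldha window, chr7:46846832-46847131, held GCGTG at -59 and 41 and no ACGTG or CACGTG. The Slc16a3 window held ACGTG at -27 and -14. That of Slc16a1, which was not called, held CACGTG at -200, ACGTG at 21 and GCGTG at -149 and -134, and that of Ldhb held a single GCGTG at -126. Among 32851 mouse promoter windows of the same length, 19.6% held ACGTG, 32.4% held GCGTG, 7.15% held CACGTG and 43.8% held ACGTG or GCGTG. These shares take no account of base content. G and C made up 67.3% of the Ldha window shown, 73.3% of that of Slc16a3, 73.7% of Slc16a1 and 57.3% of Ldhb. The motifs are matches of letters and were not tested as binding sites.

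Ldha (Entrez 16828, chr7:46842274-46855627, GRCm38.p6) encodes the muscle-type subunit. It was counted at 679, 742, 675 and 767 CPM in FA replicates 2, 3, 4 and 6, and at 1006, 1147, 1256 and 1273 CPM in DE replicates 1, 7, 3 and 5. All 4 DE libraries lay above all 4 FA libraries, and DE replicate 1 was the lowest of them. The difference was 0.71 on the log2 scale (SE 0.10, n = 4 and 4) with a Benjamini-Hochberg adjusted p of 0.00406 in edgeR's quasi-likelihood test over all tested genes. Ldha was among the abundant transcripts, with 11962 to 51052 reads per library.

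Ldhb (Entrez 16832, chr6:142490249-142507957) encodes the heart-type subunit. It stood at 638, 824, 665 and 775 CPM in FA replicates 2, 3, 4 and 6 and at 644, 681, 703 and 758 CPM in DE replicates 1, 7, 3 and 5. The DE values lay inside the FA range. The log2 difference was -0.06 (SE 0.11, 95% interval -0.30 to 0.18, edgeR adjusted p = 0.763).

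Slc16a3 (Entrez 80879, chr11:120948484-120959000) encodes MCT4, the transporter that glycolytic cells use to release lactate. Its level was 10.4, 8.82, 10.2 and 11.3 CPM in FA replicates 2, 3, 4 and 6, which are 177 to 388 reads per library. In DE it was 18.3 CPM in replicate 1, 34.1 in replicate 7, 63.0 in replicate 3 and 62.0 in replicate 5, or 604 to 2486 reads. Every DE library lay above every FA library, and the DE libraries fell far apart, those of prefix 12 at the top. The log2 difference was 2.13 (SE 0.33, n = 4 and 4, edgeR adjusted p = 0.00552), which was the widest error of the 6 genes.

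Slc16a1 (Entrez 20501, chr3:104638664-104658462) encodes MCT1. It was measured at 358, 355, 384 and 349 CPM in FA replicates 2, 3, 4 and 6, a narrow range, and at 322, 409, 269 and 335 CPM in DE replicates 1, 7, 3 and 5. DE replicates 7 and 3 were the highest and the lowest of the 8 libraries. The log2 difference of -0.11 (SE 0.12, 95% interval -0.38 to 0.15) did not pass the test (edgeR adjusted p = 0.581).

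Slc16a7 (Entrez 20503, chr10:125219270-125389586), which encodes the uptake transporter MCT2, was the least abundant of the 6 genes, with 89 to 260 reads per library. Its level was 6.95, 4.43, 7.11 and 4.97 CPM in FA replicates 2, 3, 4 and 6 and 6.32, 6.40, 4.73 and 4.89 CPM in DE replicates 1, 7, 3 and 5. The groups overlapped fully, and the log2 difference was -0.08 (SE 0.19, 95% interval -0.49 to 0.33, edgeR adjusted p = 0.812).

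Bsg (Entrez 12215, chr10:79704358-79711979) encodes basigin, the chaperone of MCT1 and MCT4. It was counted at 427, 545, 446 and 498 CPM in FA replicates 2, 3, 4 and 6 and at 415, 471, 509 and 503 CPM in DE replicates 1, 7, 3 and 5. The groups overlapped, with a log2 difference of -0.01 (SE 0.11, 95% interval -0.25 to 0.23, edgeR adjusted p = 0.957). The gene for the partner thus showed no difference past the threshold beside the 4.37-fold rise of Slc16a3.

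**Figure D1:**
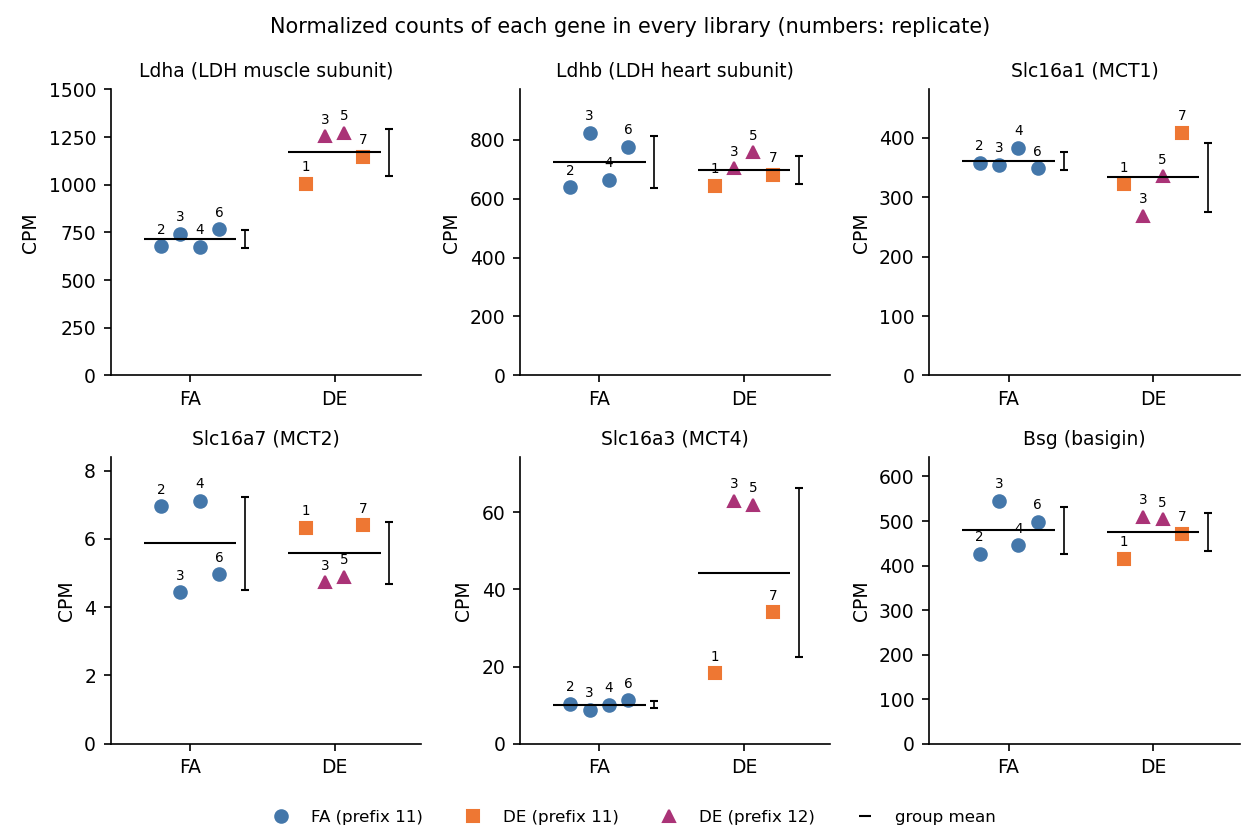
Normalized counts in CPM (vertical axis, starting at 0) of the 6 genes in each of 4 FA and 4 DE libraries, with the group mean as a line, the SD as a bar and the replicate number beside each point. All DE points of Ldha (1006 to 1273 CPM) and Slc16a3 (18.3 to 63.0 CPM) lie above all FA points, and the groups overlap for the other genes.

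Of the 8 marker sums only those of cardiomyocytes, through Myh6, and of fibroblasts separated FA from DE as Ldha and Slc16a3 did. Within DE the fibroblast sum was 6245 CPM in replicate 1, 4576 in replicate 7, 4755 in replicate 3 and 3700 in replicate 5. None of the 9 fibroblast or 12 cardiomyocyte markers was at 0 in any library. The sum of 9 leukocyte markers was 12.4 to 18.7 CPM in FA and 15.8 to 26.6 in DE, and that of the erythroid markers was 790 to 1904 CPM in FA and 1235 to 2045 in DE, so both overlapped. The sums of the endothelial (979.5 to 1280 CPM in FA and 1043 to 1555 in DE), smooth muscle and pericyte (1147 to 1788 and 821 to 1240), atrial (521 to 1289 and 516 to 794) and brown adipocyte markers (283 to 442 and 269.9 to 542) overlapped as well. The part of these cells in the Ldha and Slc16a3 differences was not tested.

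Reads near Slc16a3 could also come from Csnk1d, which lies on the opposite strand and overlaps it by 1292 bases. The kit kept the strand, but the strand setting of the counting is not given in the sources used here. Csnk1d, a casein kinase gene, was at 197 ± 4.91 CPM (SD, n = 4) in FA and 191 ± 9.29 CPM in DE, a log2 difference of -0.04 (edgeR adjusted p = 0.776). Ldha has processed pseudogenes in the mouse genome, and how reads that map to several places were counted is not given in the sources used here either.

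The split of DE by prefix was then examined in a model of 3 groups, FA, DE prefix 11 and DE prefix 12. Between the DE groups 1 of the 6 genes differed, against 2.06% of tested genes called (0.528% as higher and 1.54% as lower in prefix 12). Slc16a3 was 1.27 higher on the log2 scale in the prefix 12 libraries (SE 0.23, n = 2 and 2, edgeR adjusted p = 0.0339), with 18.3 and 34.1 CPM in prefix 11 and 63.0 and 62.0 in prefix 12. This call rested on few libraries. Without DE replicate 1 the difference was 0.88 (edgeR adjusted p = 0.167), without DE replicate 3 it was 1.26 (adjusted p = 0.158) and without DE replicate 5 it was 1.28 (adjusted p = 0.255), each with an arm of 1 library whose spread was taken from the others.

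For the remaining genes the prefix 12 minus prefix 11 differences were 0.23 for Ldha (SE 0.13, edgeR adjusted p = 0.304), 0.14 for Ldhb, 0.19 for Bsg, -0.27 for Slc16a1 and -0.40 for Slc16a7, none of them called. The MCT genes thus had differences of both signs within DE, and only that of Slc16a3 passed the test.

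Against FA, each DE group gave a rise of both genes. These contrasts share the FA libraries. The 2 DE libraries of prefix 11, which carry the prefix of the FA libraries, gave a log2 difference of 0.59 for Ldha (SE 0.11, edgeR adjusted p = 0.0190) and 1.35 for Slc16a3 (SE 0.20, edgeR adjusted p = 0.00501), with 2.99% of tested genes called, 1.78% higher and 1.22% lower. Those of prefix 12 gave 0.82 for Ldha (SE 0.11, edgeR adjusted p = 0.00176) and 2.62 for Slc16a3 (SE 0.19, edgeR adjusted p = 3.56e-05), with 23.4% of tested genes called, 9.97% higher and 13.4% lower. The other 4 genes were called in neither contrast, and their differences lay between -0.29 for Slc16a7 with prefix 12 and 0.11 for Slc16a7 with prefix 11. FA has no library of prefix 12, so for those DE libraries the prefix and the exposure cannot be told apart.

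**Figure D2:**
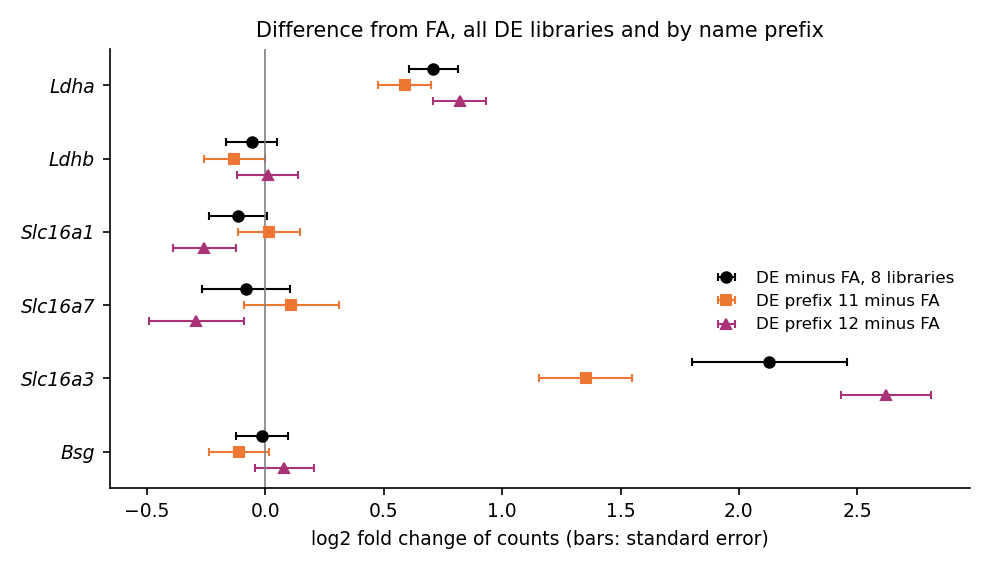
Log2 fold change from FA (horizontal axis) of the 6 genes for all 4 DE libraries (circles), DE prefix 11 (squares) and DE prefix 12 (triangles), with bars for the standard error. Ldha lies between 0.59 and 0.82 and Slc16a3 between 1.35 and 2.62 in all contrasts, and the other genes lie near 0.

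The make-up of the lactate dehydrogenase transcripts was described within each library, since a ratio inside a library does not depend on how libraries are scaled. Counts were divided by transcript length in kb for this purpose. Ldhb made up 53.4%, 57.5%, 54.5% and 55.2% of Ldha plus Ldhb in FA replicates 2, 3, 4 and 6, and 43.8%, 42.0%, 40.6% and 42.0% in DE replicates 1, 7, 3 and 5. The heart-type transcript was thus the larger one in every FA library and the smaller one in every DE library. The mean share was 55.1% ± 1.72 (SD, n = 4) in FA and 42.1% ± 1.33 (n = 4) in DE, a difference of -13.0 percentage points. The point of equal shares depends on the length, as without it the FA shares of Ldhb ran from 48.5% to 52.6% and the DE shares from 35.9% to 39.0%.

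Per kb, the ratio of Ldha to Ldhb was 0.74 to 0.87 in FA and 1.28 to 1.47 in DE. The shift came with more transcript in total, as the sum of both genes was 917 to 1099 CPM per kb in FA and 1127 to 1383 in DE. Both prefixes of DE showed it, with shares of Ldhb of 42.0% and 43.8% in prefix 11 and 40.6% and 42.0% in prefix 12.

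Among the transporters, MCT1 made up most of the transcript in every library. On the per-kb scale Slc16a1 was 92.4% ± 0.768 (SD, n = 4) of the sum of Slc16a1, Slc16a7 and Slc16a3 in FA and 78.3% ± 9.23 in DE. Slc16a3 made up 4.94%, 4.31%, 4.53% and 5.52% in FA replicates 2, 3, 4 and 6, and 9.23%, 13.1%, 29.6% and 25% in DE replicates 1, 7, 3 and 5. All DE shares of MCT4 lay above all FA shares, and those of prefix 12 lay above those of prefix 11. With the libraries of prefix 11 only, the share of Slc16a3 differed by 6.32 percentage points and that of Slc16a1 by -6.38, against 14.4 and -14.1 with all libraries, while without division by length they differed by 9.05 and -8.97.

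The ratio of MCT1 to MCT4 transcripts per kb was 16.7 to 21.7 in FA, 9.49 in DE replicate 1, 6.47 in replicate 7, 2.30 in replicate 3 and 2.92 in replicate 5. Slc16a7 held 2.73% ± 0.548 of the sum in FA and 2.43% ± 0.519 in DE, and these shares overlapped. The summed level of the 3 transporters was 85.5 to 93.9 CPM per kb in FA and 82.9 to 109 in DE. Bsg exceeded that sum in every library, by a ratio of 3.41 to 4.57 in FA and 3.09 to 4.10 in DE.

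**Figure D3:**
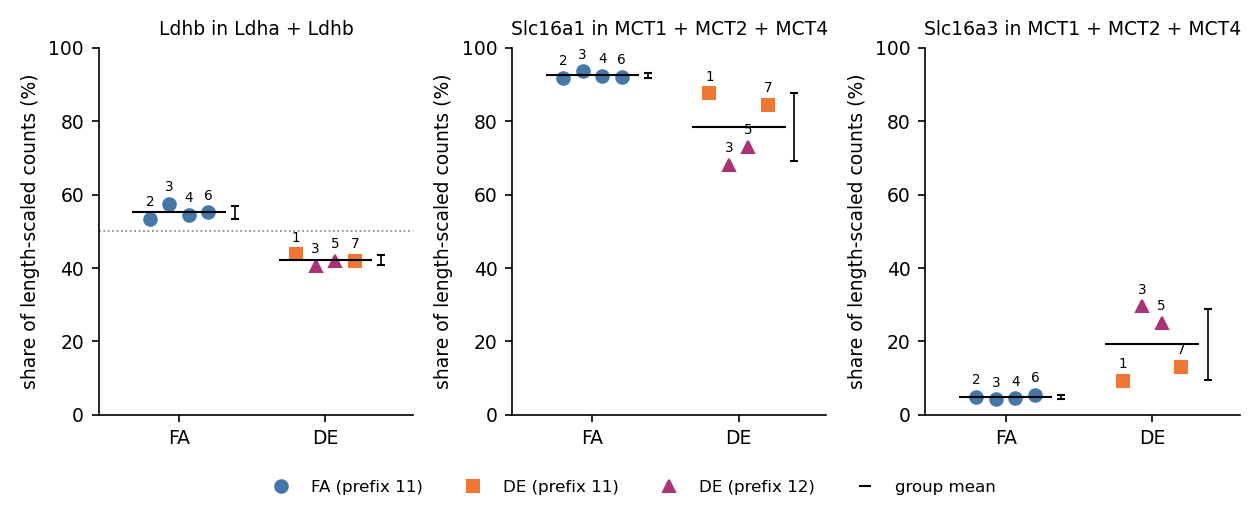
Share in percent, from counts per kb of transcript (vertical axis, 0 to 100), of Ldhb in the sum of Ldha and Ldhb and of Slc16a1 and Slc16a3 in the sum of the 3 transporters, for each library, with the group mean as a line and the SD as a bar. The Ldhb share lies at 53.4% to 57.5% in FA and 40.6% to 43.8% in DE, on either side of the dotted line of equal shares.

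Ranked by CPM per kb in FA, the order of the 6 genes was Ldhb (556 ± 67.8, SD, n = 4), Ldha (451 ± 29.0), Bsg (344 ± 38.3), Slc16a1 (81.6 ± 3.50), Slc16a3 (4.26 ± 0.423) and Slc16a7 (2.42 ± 0.564). No neighbours in this order had overlapping ranges over the 4 FA libraries. The first 3 exceeded 98.9% or more of 13851 tested genes of known length and Slc16a1 exceeded 94.7%, while Slc16a3 exceeded 38.9% and Slc16a7 29.1%. In DE the means were 737 ± 77.5 for Ldha and 534 ± 36.4 for Ldhb, so Ldha stood first, and 18.6 ± 9.19 for Slc16a3.

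The genes with the most similar course over the 8 libraries were sought among 9134 genes whose mean reached 10 CPM, by the root mean square difference of log2 CPM around each gene's mean. For Ldha they were Pdxp (0.058) and Hmgb2 (0.062), where Ldha itself spread by 0.37 around its mean. For Ldhb, Vdac3, a channel of the outer mitochondrial membrane, differed by 0.029. Ptbp2 (0.049) and Nfatc2ip (0.052) were nearest to Slc16a1, Spag9 (0.071) and Cbx5 (0.074) to Slc16a7, and Tmem143 (0.037) and Mrps23 (0.046) to Bsg. The nearest genes to Slc16a3, Gipr, the receptor of the gut hormone GIP, and Igfbp3, a binding protein of insulin-like growth factors, differed from it by 0.40 and 0.49, where Slc16a3 itself spread by 1.11. Gipr was at 10.1 CPM in FA and 41.5 in DE, and Igfbp3 at 34.6 and 85.2. With 8 libraries in common and 9134 genes to choose from, these are descriptions of likeness only.

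The pathway around these 6 genes was followed in lists written from general knowledge, but with earlier results of these data known. The counts of these lists are therefore a description, and no list was tested as a set. Of 18 glycolysis genes tested, 7 were higher in DE and 0 were lower, beside 3.58% and 2.22% of all tested genes, with a median log2 difference of 0.34 where the median over all tested genes was 0.00. At an unadjusted p under 0.05 these were 11 and 0, and edgeR's likelihood ratio test, limma-voom and DESeq2 each called 7 and 0. Over all tested genes, 25.6% had an unadjusted p under 0.05 (13.4% higher and 12.2% lower), and the likelihood ratio test called 10.7%, limma-voom 5.75% and DESeq2 10.7%, shares against which these counts and those of the lists below are to be read. Slc2a1, the glucose transporter GLUT1, rose by 0.95 (SE 0.13, 26.9 to 52.0 CPM, edgeR adjusted p = 0.00308). Pfkl, the liver form of phosphofructokinase, rose by 1.17 (SE 0.17, 82.4 to 186 CPM, edgeR adjusted p = 0.00325) and Pfkp, its platelet form, by 0.59. Pkm, pyruvate kinase, which makes the pyruvate that lactate dehydrogenase uses, rose by 0.39 (SE 0.10, 1120 to 1464 CPM, edgeR adjusted p = 0.0461).

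Of 17 genes for the entry and the fates of pyruvate, 1 was higher and 1 lower, beside 3.58% and 2.22% of all tested genes, with a median of -0.11. At an unadjusted p under 0.05, 2 were higher and 4 lower, beside 13.4% and 12.2% of all tested genes. The likelihood ratio test and limma-voom each called 1 as higher and 2 as lower, and DESeq2 called 1 and 1. Pdk4, a kinase that shuts down pyruvate dehydrogenase, fell by 1.48 (SE 0.16, 367 to 131 CPM, edgeR adjusted p = 0.000817). Pcx, pyruvate carboxylase, rose by 0.68 (15.6 to 25 CPM). Mpc1 and Mpc2, the subunits of the mitochondrial pyruvate carrier, had differences of 0.15 (edgeR adjusted p = 0.347) and 0.10 (adjusted p = 0.694) and were not called. None of 10 genes of the NADH shuttles, which carry the reducing equivalents that lactate dehydrogenase would otherwise use up, was called in edgeR's quasi-likelihood test, its likelihood ratio test, limma-voom or DESeq2. At an unadjusted p under 0.05, 0 were higher and 2 lower, beside 25.6% of all tested genes, and the median was -0.10.

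Among 11 tested genes of other SLC16 members, sodium-coupled carriers and ancillary proteins, 2 were higher and 0 lower. Over all tested genes these shares were 3.58% and 2.22%. The median of the list was 0.02. At an unadjusted p under 0.05, 2 were higher and 1 lower, a share near the 25.6% of all tested genes, and the likelihood ratio test and DESeq2 called the same numbers and limma-voom 1 and 0. Among them, Slc16a9 rose by 1.29 (SE 0.32) at a very low level, 0.479 to 1.19 CPM. Emb, the partner of MCT2, was at 1.16 CPM in FA and 1.47 in DE, a difference of 0.35 that was not called (edgeR adjusted p = 0.451).

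Of 17 hypoxia-response genes other than Ldha and Slc16a3, 3 were higher and 0 lower, beside 3.58% and 2.22% of all tested genes. Their median was 0.31. At an unadjusted p under 0.05, 8 were higher and 0 lower, beside 13.4% and 12.2% of all tested genes. The likelihood ratio test called 5 as higher, limma-voom 3 and DESeq2 6, beside 6.23%, 3.41% and 6.04% of all genes, with 0 lower in each. They were Bnip3, a mitophagy receptor, which rose by 1.11 (SE 0.12, 88.4 to 191 CPM, edgeR adjusted p = 0.000628), the prolyl hydroxylase gene Egln3 (1.17, edgeR adjusted p = 0.0231) and Ndrg1 (0.52, edgeR adjusted p = 0.0452). With the DE libraries of prefix 11 alone against FA, Egln3 was at 0.70 (edgeR adjusted p = 0.0908) and Ndrg1 at 0.32 (adjusted p = 0.213), so both calls were lost, while Bnip3 kept its call at 1.06. Of 16 regulators, with a median of -0.16, 1 was called, beside 5.8% of all tested genes. It was Ppargc1b, a coactivator of mitochondrial genes, which fell by 0.76 (31.0 to 18.3 CPM). At an unadjusted p under 0.05, 2 regulators were higher and 3 lower, beside 13.4% and 12.2% of all tested genes. Hif1a, which encodes a hypoxia-inducible factor, had a difference of -0.22 (edgeR adjusted p = 0.297), Myc of 0.07 (adjusted p = 0.777) and Ppargc1a of -0.26 (adjusted p = 0.310), and these were not called.

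Against FA, calls over all tested genes were 448 (2.99%) with prefix 11 and 3499 (23.4%) with prefix 12, and those in the pathway lists were 6 and 37. The glycolysis list had 2 higher genes with prefix 11, where 1.78% of all genes were higher, and 11 with prefix 12, where 9.97% were. The hypoxia list had 1 and 9 higher genes, with a further gene lower with prefix 12. Of the other list genes named above, Slc2a1, Pfkl, Pdk4 and Pcx were also called with prefix 11, and Pfkp (0.43, edgeR adjusted p = 0.0548), Pkm (0.30, adjusted p = 0.197), Slc16a9 (adjusted p = 0.137) and Ppargc1b (-0.74, adjusted p = 0.0679) were not. Between the DE groups themselves 1 glycolysis gene, Pgam1 (0.90), and 1 hypoxia gene, P4ha2 (0.78), were higher in prefix 12, while Slc16a12 (-0.99) and Pdpr (-1.89) were lower. These calls rest on 2 libraries against 2, and over all tested genes 0 were called without DE replicate 3 or DE replicate 5 and 1 without DE replicate 1.

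**Figure D4:**
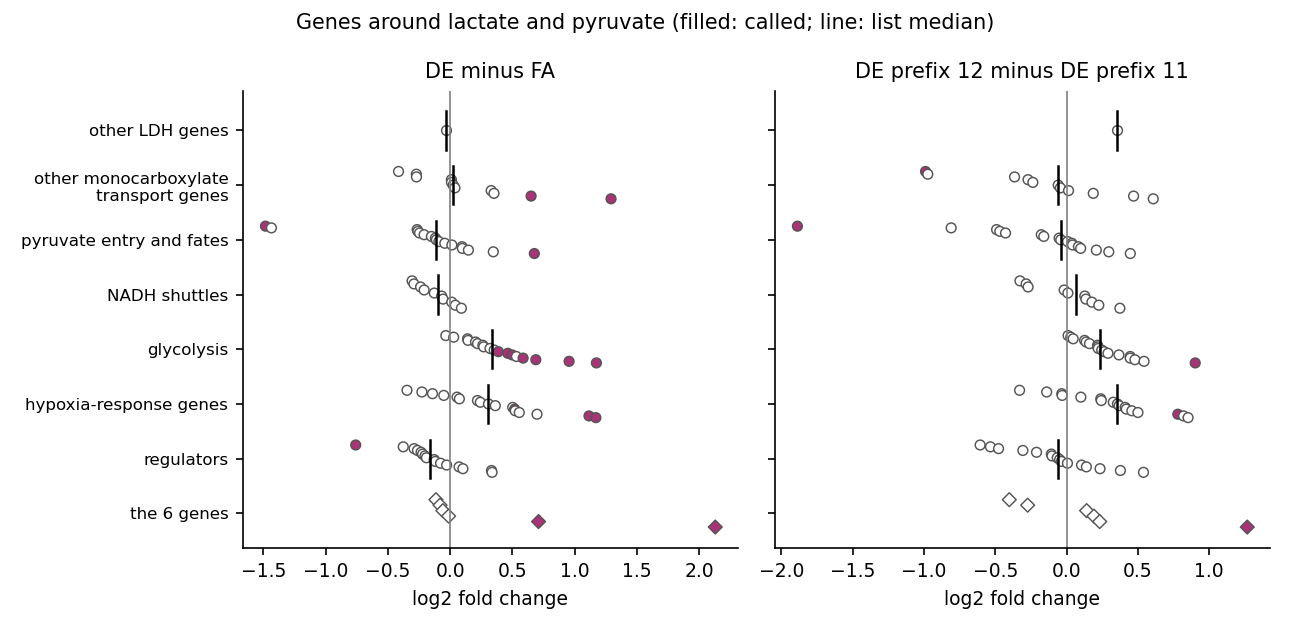
Log2 fold change (horizontal axis) of each tested gene of the pathway lists and of the 6 genes, for DE minus FA on the left and for DE prefix 12 minus prefix 11 on the right, with called genes filled and a line at each list's median. The glycolysis list lies mostly right of 0 on the left side (median 0.34, 7 of 18 called), and Slc16a3 is farthest right on both sides at 2.13 and 1.27.

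The values of the 6 genes were compared over 22 other settings of the fit. Ldha stayed between 0.58 and 0.82 and Slc16a3 between 1.35 and 2.62, and both were called under each of these settings, with adjusted p-values of at most 0.0467 and 0.0240. The other 4 genes stayed within 0.30 of 0 and were called under none of them.

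**Figure D5:**
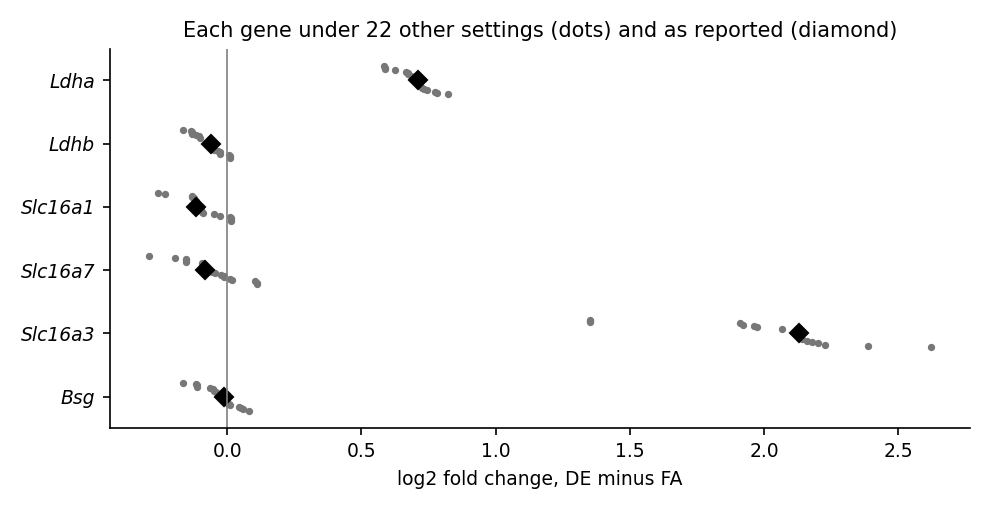
Log2 fold change, DE minus FA (horizontal axis), of each gene as reported (diamond) and under each of 22 other settings (dots), which share most libraries. Ldha (0.58 to 0.82) and Slc16a3 (1.35 to 2.62) stay clear of 0, and the dots of the other genes spread over both sides of it.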

How the data were processed

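RNA from NCMs of 8 male neonates was measured by poly-A selected, stranded RNA-seq. The authors aligned reads to mm10 with Tophat, marked duplicates without removing them, processed alignments with GATK and used featureCounts to count fragments. What they deposited are counts for each Entrez gene, without normalization. Reads marked as suspected duplicates may not be independent molecules, so counting precision may be overstated. All sample columns were used.

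Symbols were matched for 25275 of 27179 genes on GRCm38.p6, and all genes stayed in the totals. With edgeR 4.0.16 in R 4.3.3, filterByExpr (minimum count 10) kept 14966 genes. TMM factors scaled the counts, and exposure was tested with glmQLFit and glmQLFTest with Benjamini-Hochberg adjustment over all tested genes. The methods of the study state n = 3 per group without naming libraries, so all 8 were used. Calls needed an adjusted p of 0.05 or less and a difference of at least 25%. A model of 3 groups served to compare the prefixes. Levels per kb used the median length of each gene's transcripts in GENCODE vM21. Shares and ratios were described with no test.

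The 6 genes and all lists were chosen with earlier results of these data known. Named genes were the 6 genes, the 2 nearest profiles of each, up to 3 called genes per list with the smallest adjusted p, and Hif1a, Myc, Ppargc1a, Emb, Mpc1, Mpc2, Pdk4 and Pkm, with defining markers. Genes named because they differed between the prefixes (Pgam1, P4ha2, Slc16a12 and Pdpr) and the neighbour Csnk1d were added after their values were seen. Of the genes this rule names, 2 are not reported here. Marker lists covered cardiomyocytes, atrial cells, fibroblasts, endothelium, leukocytes, erythroid cells, brown adipocytes, and smooth muscle with pericytes, and 161 of 163 list symbols were matched.

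The alternatives were DESeq2 1.42.0, limma-voom (limma 3.58.1), edgeR's likelihood ratio test, the 25% difference built into the test, other scaling factors, other filters, the prefix as a term, prefix 11 only, offsets for transcript length and GC content, and each library left out. The contrasts of each DE prefix with FA, leaving libraries out of the prefix contrast, and the cardiomyocyte sum without Myh6 were added after the data were seen. The code was tested on simulated data.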

Additional observations from a re-analysis of the deposited data

Results flagged for a closer look

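Slc16a3 differed between the DE libraries themselves. It was 1.27 higher on the log2 scale in those of prefix 12 (63.0 and 62.0 CPM) than in those of prefix 11 (18.3 and 34.1 CPM), a difference tested as a contrast in the model of 3 groups. It is listed here because the rise over FA thus differed in size between both sets of DE libraries, 1.35 with prefix 11 and 2.62 with prefix 12, while the direction was shared. The summed fibroblast markers were 6245 and 4576 CPM in the prefix 11 libraries and 4755 and 3700 in those of prefix 12, and their part in the difference was not tested. Prefix 12 occurs in no FA library, so what goes with the prefix and the exposure cannot be told apart in it.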

How the results depend on the processing

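All 22 alternatives called Ldha and Slc16a3 and no other of the 6 genes, the prefix term and the prefix 11 contrast being the same estimate. Genes that were not called crossed 0. Bsg was 0.012 with upper quartile factors, 0.059 with library totals alone, 0.080 with prefix 12 against FA and -0.065 to 0.053 with 1 library left out. Ldhb was 0.012 with library totals alone, 0.0099 with prefix 12 and -0.12 to 0.0058 with 1 library left out. Slc16a1 was 0.015 with the prefix term or prefix 11 against FA, 0.011 with prefix 11 only and 0.014 with offsets. Slc16a7 was 0.11 with the prefix term or prefix 11 against FA, 0.11 with prefix 11 only and -0.19 to 0.018 with 1 library left out, and its share moved to 0.053 percentage points with prefix 11 only.

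Called genes, 868 as reported, were 1603 with the likelihood ratio test, 1620 with DESeq2, 1512 with offsets, 114 with the 25% difference built in, 448 with the prefix term or prefix 11 against FA, 260 with prefix 11 only, 3499 with prefix 12 against FA, and 237 to 1168 with 1 library left out (249 without FA replicate 2, 433 without FA replicate 3, 237 without FA replicate 4, 268 without DE replicate 3 and 526 without DE replicate 5). Genes called in the pathway lists, 15 as reported, were 4 with the 25% difference built in, 6 with the prefix term, with prefix 11 only or with prefix 11 against FA, 37 with prefix 12 against FA, and 6 to 20 with 1 library left out (6 without FA replicate 2 or FA replicate 4 and 7 without DE replicate 3).

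Between the prefixes, 309 genes were called, against 1273 with the likelihood ratio test and 0 to 1031 with 1 library left out (1031 without FA replicate 3, 1 without DE replicate 1, 19 without DE replicate 7 and 0 without DE replicate 3 or DE replicate 5). Of the 6 genes 0 to 1 were then called, and Slc16a3 lay between 0.88 and 1.78, with its call lost without DE replicate 1, 3 or 5. The cause of these moves was not tested, but leaving out a DE library leaves an arm with 1 library. No paired analysis was made, because each dam breathed either FA or DE and no label links an FA heart to a DE heart. Each group holds 4 libraries, and for Ldhb, Slc16a1, Slc16a7 and Bsg any value inside the intervals given is compatible with these data.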

Other observations

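Genes of the lactate family outside the 6 were at the edge of detection or below the filter. Ldhd, which encodes the mitochondrial D-lactate dehydrogenase, was at 2.26 ± 0.237 CPM (SD, n = 4) in FA and 2.17 ± 0.484 in DE, with a log2 difference of -0.04 (edgeR adjusted p = 0.925). Ldhc, the testis form, had 15 counts over all 8 libraries and Ldhal6b had 40. Slc5a8 and Slc5a12, the sodium-coupled carriers of lactate, had 7 counts each, and Hcar1, the lactate receptor, had 25. Slc16a14 had 5 counts and Slc16a5 had 23. None of these was tested except Ldhd.

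Nptn, which encodes neuroplastin, a relative of basigin that also partners monocarboxylate transporters, was at 137 ± 1.71 CPM in FA and 141 ± 8.74 in DE, with a log2 difference of 0.04 that was not called. Slc16a12 did not differ past the threshold between DE and FA (8.26 ± 1.15 and 8.35 ± 3.23 CPM), although it ran in DE from 4.96 to 11.1 CPM. Nptn and the untested genes were named after their values were seen.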
